A study of Mesocricetus auratus with 6 samples.

Results

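Antigen processing for MHC class I was compared between *duper* and wild-type Syrian hamsters through *Nlrc5*, the transcriptional regulator of the pathway, and its known target genes. The pathway was represented by 10 genes named by symbol, *Nlrc5*, *B2m*, *Tap1*, *Tap2*, *Tapbp*, *Tapbpl*, *Psmb8*, *Psmb9*, *Psmb10* and *Erap1*. They were named as a regulator and its known targets, but with earlier results of these data known, and the study had picked *Nlrc5* on these libraries. Of these, 9 have a row among the 31593 genes of the deposited tables, and *Tapbp* was not analysed here. All 9 passed the filter on low counts.

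RNA was sequenced from cortex, liver and the suprachiasmatic nucleus (SCN), the hypothalamic site of the master circadian clock, of 4 *duper* and 4 wild-type hamsters collected at circadian time 15 (CT15). *duper* animals are null for Cryptochrome 1 (*Cry1*), a repressor in the clock, and no longer carry the *tau* mutation on which *duper* arose. Wild-type animals were of the LVG (Lakeview) ecotype, the ecotype to which *duper* had been crossed. All hamsters were raised in a light-dark cycle. All 4 *duper* animals were female, whereas 2 of the wild-type animals were male and 2 female, so that the sex make-up and the genotype of the libraries cannot be told apart. Each cortex or SCN library was made from material combined over the 4 animals, and each liver set merges the reads of 4 libraries. There are thus 6 sets of values, called libraries here, 1 for each genotype in each tissue, and a tissue holds no replicate.

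Nucleated cells show fragments of their own proteins on MHC class I molecules, each made of a heavy chain and β2-microglobulin, where cytotoxic T cells can read them. The proteasome cuts the proteins, the TAP transporter carries the peptides into the endoplasmic reticulum, chaperones load them, and an aminopeptidase trims them to length. NLRC5, an NLR family protein that acts in the nucleus, switches on many of these genes together, and interferons raise its level. Healthy neurons hold little class I RNA, while hepatocytes and the macrophages of the liver hold more.

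Libraries held between 6788947 and 85748562 estimated counts, the brain libraries being the shallower. Levels are given in TPM, a measure scaled for transcript length and library total, with wild type first and *duper* second. *Cry1*, the mutated gene, had 33.3 TPM in wild-type and 8.56 in *duper* cortex, 22.9 against 8.14 in SCN, and 16.8 against 5.44 in liver. The tissue labels were checked against marker genes. Hepatocyte genes summed to 135200 and 142100 TPM in the liver libraries and to at most 2558 in the others, where the highest sums, those of cortex, were nearly all *Ttr* (1837 and 2505 TPM, beside 165 and 24.1 in SCN). Neuronal cortex genes summed to 1040 and 948 TPM in the cortex libraries and to 22.4 and 17.0 in SCN. The SCN genes in the tables (*Six6*, *Nms*, *Rgs16* and *Lhx1*) summed to 74.9 and 47.6 TPM in the SCN libraries, 11.6 and 10.5 in cortex, and 125 and 135 in liver, where *Rgs16* made up nearly all of it. *Nms*, a neuropeptide of SCN neurons, was at 33.5 and 13.4 TPM in SCN and at 0 elsewhere, and *Avp* and *Vip* were not analysed here.

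The class I genes were on balance higher in *duper*, and none of them passed the test across tissues. *Nlrc5* and *Psmb8*, an inducible subunit of the proteasome, had the largest differences, and the other 7 had log2 fold changes of 0.05 to 0.30. The comparison asked which genes differ with the loss of CRY1, and the log2 fold change of *duper* over wild type was fitted over all 6 libraries with tissue as a covariate. The calling threshold was an adjusted p under 0.05 together with an absolute log2 fold change over 0.58. With edgeR's quasi-likelihood test and Benjamini-Hochberg adjustment over 18275 genes, 0 of the 9 class I genes were called, where 0.00547% of all genes were, in either direction. The mutated gene *Cry1* was not called by this test either, at a log2 fold change of -1.69 (SE 0.17) and an adjusted p of 0.131. The lack of a call therefore does not show the lack of a difference. The unadjusted p was under 0.05 and the gene higher in *duper* for 3 of the 9 (*Nlrc5*, *Psmb8* and *Erap1*), against 1.8% of all genes. edgeR's likelihood ratio test called 2 of the 9, *Nlrc5* and *Psmb8*, against 0.295% of all genes called higher, and DESeq2 called 0. These counts include *Nlrc5*, which the study picked on these libraries, so they are not independent of that choice. All 9 log2 fold changes were positive, with a median of 0.27 against 0.01 over all genes, although that of *Psmb9* turned negative under 9 of 16 alternative settings, library-size scaling among them. Such settings overlap, since for genotype leaving out either library of a tissue largely repeats leaving out both. The 3 tissues came from the same hamsters, so these p-values measure the spread between the libraries and not between animals. In bulk tissue, fewer cells of a type and less RNA per cell cannot be told apart.

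*Nlrc5* was the rarest of the genes and was higher in *duper* in all 3 tissues. Its level was 0.530 TPM in wild-type and 1.11 in *duper* cortex, 1.08 against 2.11 in SCN, and 4.37 against 6.94 in liver. This was a 2.1-fold difference in cortex, 1.95-fold in SCN and 1.59-fold in liver. In cortex the values rest on 12 and 40 estimated counts, and the log2 ratio of 1.07 has a 95% interval of 0.17 to 2.20, which like all intervals given here covers counting error only. The intervals were 0.49 to 1.41 in SCN and 0.57 to 0.76 in liver, so that in each tissue the difference exceeded counting error. Across tissues *Nlrc5* had a log2 fold change of 0.93 (SE 0.16) with an adjusted p of 0.452 by edgeR's quasi-likelihood test. Under 17 alternative settings its value ranged from 0.54 to 1.01 and the adjusted p from 0.00503 to 1.0, and only the likelihood ratio test called it. *Nlrc5* is also among the genes that the study itself picked on these libraries, so its difference is not independent evidence of a direction.

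**Figure D1:**
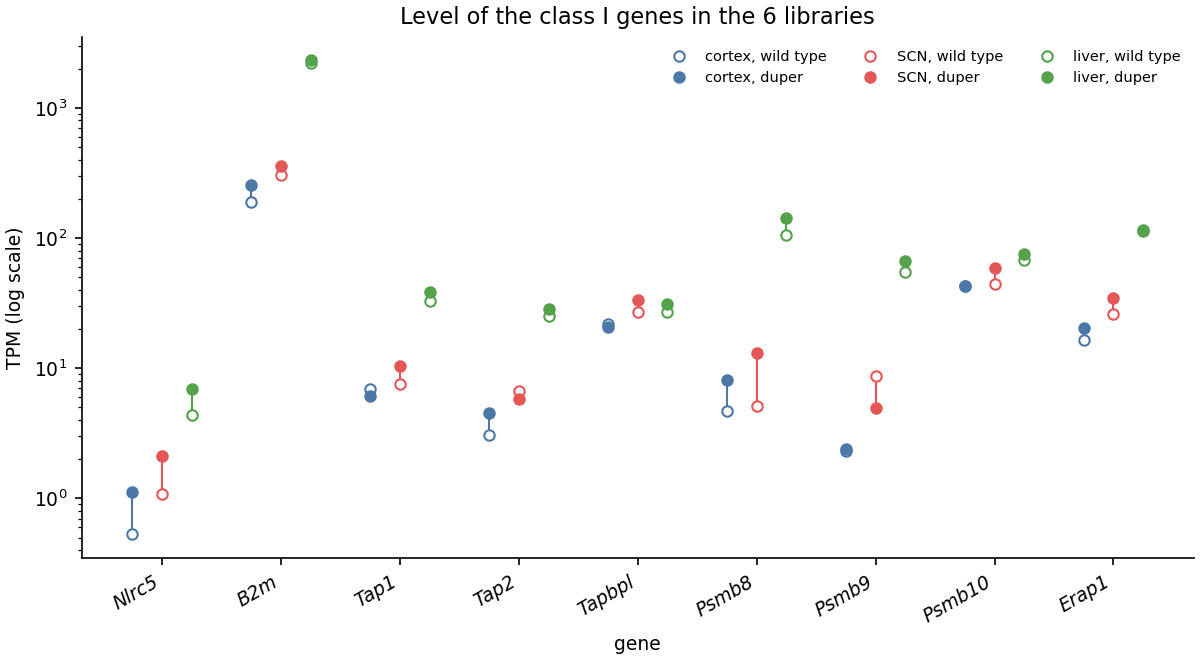
Level of each class I gene in TPM, on a log axis, in the 6 libraries, with open circles for wild type and filled circles for *duper*, and 1 library per point. Liver values lie above all brain values for 8 of the 9 genes, *Tapbpl* being the exception, and *Nlrc5* has its filled circle above the open one in each tissue.

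*B2m* encodes β2-microglobulin, the light chain that every classical class I molecule needs. It was by far the most abundant gene of the group in each library. *B2m* stood at 188 TPM in wild-type and 255 in *duper* cortex, 306 against 357 in SCN, and 2203 against 2310 in liver. The log2 ratio was 0.43 (interval 0.26 to 0.61) in cortex, 0.22 (0.11 to 0.33) in SCN and 0.07 (0.05 to 0.08) in liver. In TPM the *duper* value was thus higher each time, by least in the tissue where the gene was most abundant. That order depends on scaling. In the fit over all 6 libraries the genotype difference in liver minus that in brain was -0.05 (SE 0.20), with an adjusted p of 0.959 by edgeR's quasi-likelihood test. Across tissues the log2 fold change was 0.29 (SE 0.14).

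The heavy chains were followed in 3 genes that the study names as class I heavy chains, *LOC101823249* (L-D alpha chain), *LOC101831377* (Q10 alpha chain) and *LOC121134329* (Q10 alpha chain-like). The study picked them on these libraries, so their direction is not independent evidence, and near-identical members of this family can share reads. *LOC101823249* had 47.3 TPM in wild-type and 85.8 in *duper* cortex, 103 against 159 in SCN, and 1066 against 1870 in liver. *LOC101831377* had 35.1 against 59.7 TPM in cortex, 78.2 against 102 in SCN, and 592 against 963 in liver. *LOC121134329* was lower throughout, at 7.49 against 10.7 TPM in cortex, 7.43 against 15.9 in SCN, and 16.6 against 43.2 in liver. All 3 were higher in *duper* in every tissue, and their summed level was 89.9 against 156 TPM in cortex, 188.5 against 277 in SCN, and 1675 against 2876 in liver. Across tissues the log2 fold changes were 0.82 (SE 0.16), 0.67 (SE 0.15) and 1.15 (SE 0.22) in the order named, with adjusted p of 0.619, 0.902 and 0.644 by edgeR's quasi-likelihood test.

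*Tap1* and *Tap2* encode the paired chains of the peptide transporter of the endoplasmic reticulum. *Tap1* had 6.96 TPM in wild-type and 6.13 in *duper* cortex, 7.61 against 10.5 in SCN, and 33.0 against 38.7 in liver. *Tap2* had 3.08 against 4.57 TPM in cortex, 6.72 against 5.82 in SCN, and 24.9 against 28.5 in liver. The partners went opposite ways in the brain tissues, *Tap1* being lower in *duper* cortex and *Tap2* in *duper* SCN, but neither difference exceeded counting error, with log2 ratios of -0.18 (interval -0.69 to 0.33) and -0.21 (-0.61 to 0.18). In liver both were higher, by 0.23 (0.17 to 0.29) and 0.19 (0.13 to 0.26) on the log2 scale. Across tissues their log2 fold changes were 0.27 (SE 0.16) and 0.22 (SE 0.17). *Tapbpl* encodes TAPBPR, a relative of tapasin that edits the peptides bound by class I, and had 21.7 TPM in wild-type and 20.6 in *duper* cortex, 26.9 against 33.2 in SCN, and 27.2 against 31.3 in liver. Its log2 fold change across tissues was 0.21 (SE 0.14).

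*Psmb8*, *Psmb9* and *Psmb10* encode the catalytic subunits of the immunoproteasome, which replace *Psmb5*, *Psmb6* and *Psmb7* of the standard proteasome and favor peptides that fit class I. *Psmb8* had 4.71 TPM in wild-type and 8.09 in *duper* cortex, 5.14 against 13.1 in SCN, and 105.5 against 142 in liver. The *duper* value was the higher in each tissue, but in cortex, with 13 and 34 counts, the interval of the log2 ratio ran from -0.18 to 1.83. In SCN the log2 ratio was 1.35 (interval 0.77 to 1.92), the largest of the 9 genes in any tissue, and in liver 0.43 (0.37 to 0.49). Across tissues the log2 fold change of *Psmb8* was 0.84 (SE 0.18), with an adjusted p of 0.739 by edgeR's quasi-likelihood test and of 0.0357 by the likelihood ratio test. With both SCN libraries left out it was 0.61. Leaving out either 1 of them gave 0.65, which is no separate check, because the tissue term takes up the SCN library that remains.

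*Psmb9* had 2.29 TPM in wild-type and 2.38 in *duper* cortex, 8.70 against 4.97 in SCN, and 54.5 against 66.6 in liver. It was the only one of the 9 genes that was lower in *duper* by more than counting error in any tissue, its SCN log2 ratio being -0.81 (interval -1.61 to -0.09) on 133 and 18 counts, against 0.29 (0.21 to 0.37) in liver. *Psmb10* had 42.7 against 42.8 TPM in cortex, 44.3 against 58.3 in SCN, and 67.7 against 75.4 in liver. Its log2 ratio was 0.40 (0.14 to 0.65) in SCN and 0.16 (0.08 to 0.24) in liver. Across tissues the log2 fold changes were 0.05 (SE 0.27) for *Psmb9* and 0.25 (SE 0.14) for *Psmb10*.

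*Erap1* encodes the aminopeptidase that trims peptides in the endoplasmic reticulum. It had 16.5 TPM in wild-type and 20.3 in *duper* cortex, 26.2 against 34.8 in SCN, and 113 against 116 in liver. Each *duper* value was higher, with intervals of the log2 ratio of 0.01 to 0.59, 0.24 to 0.58 and 0.01 to 0.07. Across tissues the log2 fold change was 0.30 (SE 0.11), with an unadjusted p of 0.0289 and an adjusted p of 0.998 by edgeR's quasi-likelihood test.

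**Figure D2:**
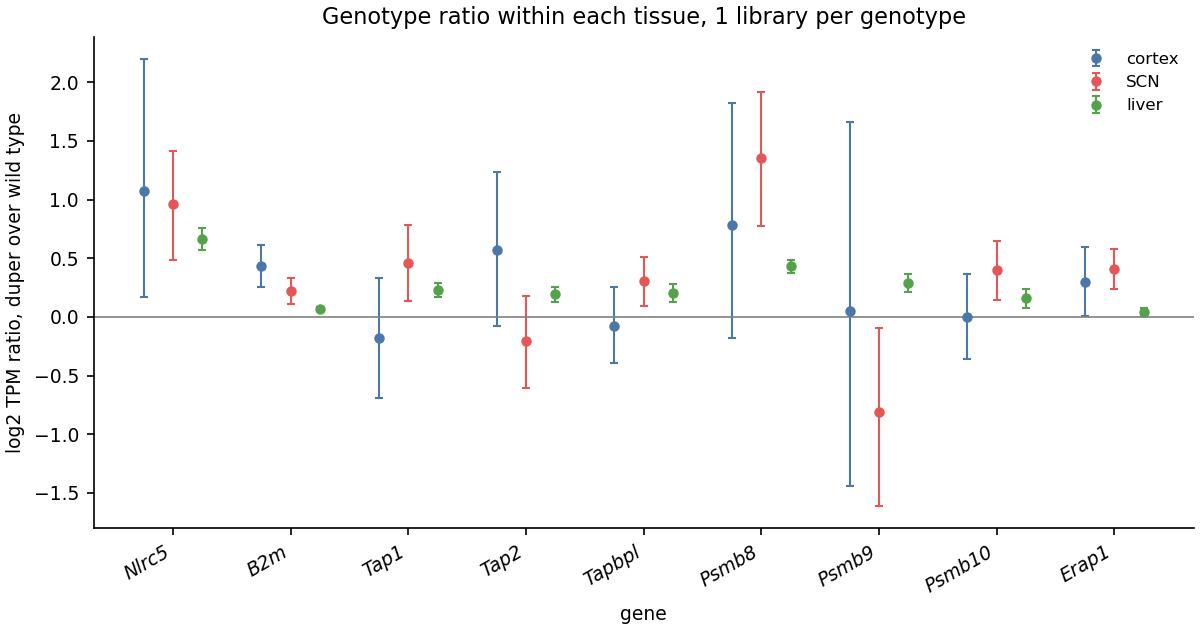
Log2 ratio of TPM, *duper* over wild type, for each class I gene in cortex, SCN and liver, with 1 library per genotype and tissue and bars for the 95% interval from counting error only. The bars of *Nlrc5* lie above 0 in all 3 tissues, and those of *Psmb9* lie below 0 in SCN and above 0 in liver.

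Tissue by tissue, the interval of the log2 ratio lay above 0 for 3 of the 9 genes in cortex, 7 in SCN and 9 in liver. Among all genes averaging 1 TPM or more, the corresponding shares were 15.9% (cortex), 18.4% (SCN) and 22.8% (liver). The interval lay below 0 for 2105 of 18096 such genes in cortex, 2421 of 18305 in SCN and 6641 of 14054 in liver. In liver a difference beyond counting error was thus common among all genes. On the scale of log2(TPM + 1), which understates the change of low genes, a ratio over 0.58 was reached by 1 of the 8 class I genes with at least 1 TPM in cortex (*Psmb8*), by 2 of 9 in SCN (*Nlrc5* and *Psmb8*) and by 0 of 9 in liver, against 8.24%, 6.67% and 4.75% of all genes. The median ratios of the class I genes in cortex, SCN and liver were 0.16, 0.39 and 0.20, beside 0.02, 0.02 and -0.10 over all genes. Relative to the liver median, *Nlrc5* was higher by 0.67 and *Psmb8* by 0.53 in *duper* liver. *Nlrc5*, *B2m*, *Psmb8*, *Psmb10* and *Erap1* were higher in *duper* in all 3 tissues, although *Psmb10* was near equal in cortex (log2 ratio 0.0025, interval -0.36 to 0.37). Of the 8 class I genes with at least 1 TPM in every tissue 4 were, *Psmb10* among them, against 9.52% of all such genes.

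Each inducible subunit was also set against the standard subunit whose place it takes, as a percent of its TPM within a library. *Psmb8* stood at 2.28% of *Psmb5* in wild-type and 3.98% in *duper* cortex, 2.4% against 5.38% in SCN, and 78.8% against 122% in liver. *Psmb9* stood at 1.38% against 1.4% of *Psmb6* in cortex, 3.78% against 2.34% in SCN, and 33.3% against 49.6% in liver. *Psmb10* stood at 20.1% against 18.6% of *Psmb7* in cortex, 22.5% against 28.4% in SCN, and 33.3% against 44.8% in liver. In liver all 3 ratios were higher in *duper*, by 0.62 (interval 0.54 to 0.71), 0.58 (0.48 to 0.67) and 0.43 (0.34 to 0.52) on the log2 scale. There the standard subunits had lower TPM in *duper*, *Psmb5* at 134 and 117, *Psmb6* at 164 and 134, and *Psmb7* at 203 and 168, so the ratios combine both differences, and the median over all genes was also lower there, by 0.10. In the brain tissues the differences that exceeded counting error were those of *Psmb8* in SCN, 1.16 (0.60 to 1.72), and of *Psmb10* in SCN, 0.34 (0.06 to 0.61).

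**Figure D3:**
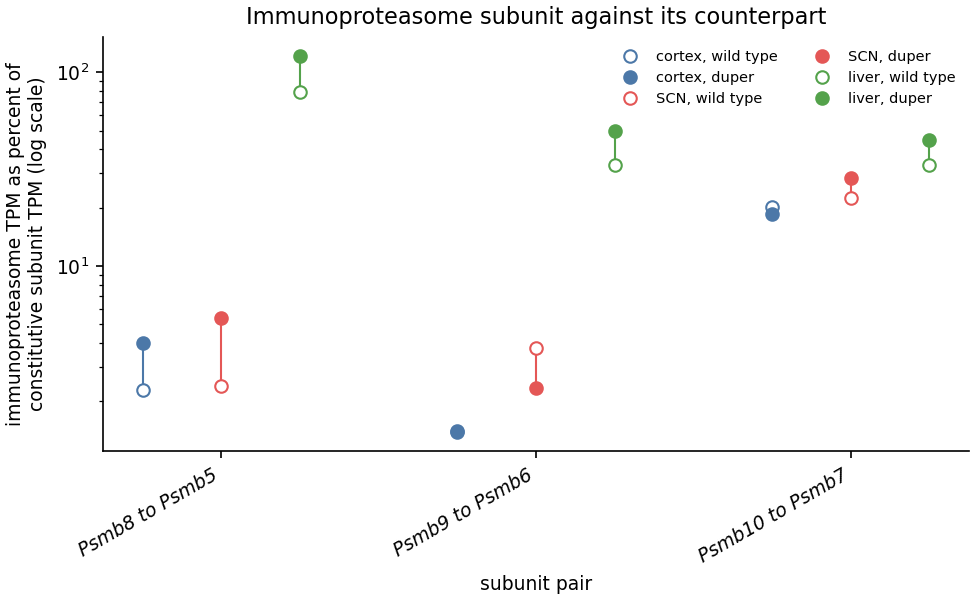
TPM of each immunoproteasome subunit as a percent of the TPM of its standard counterpart, on a log axis, in the 6 libraries, with open circles for wild type and filled circles for *duper*. All 3 pairs have the higher percent in *duper* liver, and *Psmb8* reaches 122% of *Psmb5* there.

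The tissues differed far more than the genotypes. In liver against the mean of cortex and SCN, 9 of 9 class I genes were called higher by edgeR's quasi-likelihood test, against 33.3% of all genes. The log2 fold change was 5.70 for *Psmb8*, 5.44 for *Psmb9* and 4.64 for *B2m*, between 3.82 and 3.99 for *Tap1*, *Erap1*, *Nlrc5* and *Tap2*, 2.19 for *Psmb10* and 1.79 for *Tapbpl*. These sizes depend on scaling, the TMM factors being 0.539 and 0.606 in the liver libraries and 1.24 to 1.41 in the brain libraries. With TMM 6083 genes were called higher and 6226 lower, and with library size 2633 and 11001, with a median over all genes of -1.21. Under library size 14.4% of all genes were called higher in liver and 8 of 9 class I genes still were, *Tapbpl* having a log2 fold change of 0.58, just under the threshold. In TPM, *Psmb8* was 15.9 times, *Psmb9* 13.2 times and *B2m* 8.15 times as high in liver as in brain on average, *Psmb10* 1.52 times and *Tapbpl* 1.14 times. The liver values of *Tapbpl* (27.2 and 31.3 TPM) lay within its 4 brain values (20.6 to 33.2), and for the other 8 genes both liver values lay above all 4 brain values.

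Within the brain, 2 of 9 class I genes were called higher in SCN than in cortex, against 3.91% of all genes. They were *Erap1*, with a log2 fold change of 0.72 (SE 0.14, adjusted p of 0.0201 by edgeR's quasi-likelihood test), and *Nlrc5*, with 0.96 (SE 0.22, adjusted p of 0.0398 by the same test). *Psmb9* had 1.68 (SE 0.45) and *B2m* 0.59 (SE 0.17), with adjusted p of 0.0605 and 0.0752 by edgeR, and all 9 log2 fold changes were positive. Leaving out any 1 of the 4 brain libraries leaves a tissue with 1 library, and neither gene stayed called. The log2 fold changes were then 0.88 to 1.11 for *Nlrc5* and 0.64 to 0.80 for *Erap1*. On all 6 libraries limma did not call *Nlrc5*, with adjusted p of 0.156 on log2(TPM + 1) and 0.149 on log2(TPM + 0.1). *Erap1* stayed called by limma, with adjusted p of 0.0237 and 0.0373 in that order. With TMM 715 genes were called higher in SCN and 1330 lower, and with library size 1398 and 1041.

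Whether the genotype difference itself differed between liver and brain was tested with a genotype-by-liver term. None of the 9 class I genes were called by edgeR's quasi-likelihood test, against 1.89% of all genes called with a positive term, and DESeq2 and the likelihood ratio test called 0 as well. *Psmb9*, with a value of 1.09 (SE 0.37), was the 1 gene with an unadjusted p under 0.05 (0.0108), and its adjusted p was 0.140 by edgeR. *Psmb8* had -0.55 (SE 0.30). The fit left 1 residual degree of freedom among the libraries.

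Other genes of the pathway were counted from lists of 40 symbols, of which 36 were in the tables and all 36 were tested. In *duper* against wild type 0 of the 36 were called by edgeR's quasi-likelihood test, as by DESeq2 and the likelihood ratio test, and 3 had an unadjusted p under 0.05, against 3.32% of all genes in either direction. Log2 fold changes were positive for 32 of the 36, against 52.9% of all genes, with a median of 0.11. With library size 27 were positive, against 40.4% of all genes, and without the liver libraries 22, against 50.3%. Chaperones and channels of the endoplasmic reticulum that load or pass peptides were positive for 8 of 8, from 0.05 (*Sec61b*) to 0.29 (*Pdia3*), but within tissues the *duper* value was higher for 4 of 8 in cortex, 2 of 8 in SCN and 7 of 8 in liver. The proteasome activators and standard catalytic subunits ranged from -0.08 (*Psmb6*) to 0.09 (*Psme2*), 5 of 6 positive. Other peptidases ranged from 0.08 (*Tpp2*) to 0.16 (*Thop1*), 4 of 4 positive.

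The partners that NLRC5 needs at class I promoters, the RFX, CREB/ATF and NF-Y factors, ranged from -0.43 (*Nfya*, SE 0.14) to 0.23 (*Rfx5*, SE 0.13), with 6 of 7 positive. *Nfya* is a DNA-binding subunit of NF-Y and had 16.1 TPM in wild-type and 11.1 in *duper* cortex, 12.7 against 10.7 in SCN, and 9.42 against 6.04 in liver, an unadjusted p of 0.0195 and an adjusted p of 0.998 by edgeR. The 5 regulators listed beside them were all positive, the lowest being *Rela* at 0.05, a subunit of NF-κB. Class I-like genes ranged from -0.19 (*Hfe*) to 0.46 (*Azgp1*, SE 0.15), 2 of 4 positive. For class II only *Ciita*, its master regulator, and *Cd74*, the invariant chain, were looked up, with 0.13 and 0.37 (SE 0.18).

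In liver against brain 30 of the 36 genes were called higher and 1 lower (*Rfx5*, -0.59), against 33.3% and 34.1% of all genes. With library size 16 were called higher and 6 lower, against 14.4% and 60.2%, and with limma on log2(TPM + 1) 14 and 11, against 11.6% and 67.0%. In SCN against cortex 3 were called higher, against 3.91% of all genes, *Azgp1* (2.15, SE 0.24), *Cd74* (1.61, SE 0.23) and *Rfx5* (0.66, SE 0.16). The genotype difference was larger in liver than in brain for 5 of the 36 by edgeR's quasi-likelihood test, against 1.89% of all genes. These were *Calr*, *Pdia3*, *Sec61a1* and *Sec61b*, which serve the folding or entry of proteins in the endoplasmic reticulum, and *Thop1*, a cytosolic peptidase. *Calr*, calreticulin of the loading complex, had 654 TPM in wild-type and 661 in *duper* cortex, 698 against 685 in SCN, and 761 against 1191 in liver. *Pdia3*, its partner ERp57, had 248 against 273 in cortex, 346 against 341 in SCN, and 465 against 704 in liver. Both were near equal between genotypes in the brain and higher in *duper* liver. DESeq2 called 0 of the 5, and library-size scaling left 1 (*Sec61a1*). With TMM 345 genes were called with a positive and 248 with a negative term, and with library size 122 and 228.

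**Figure D4:**
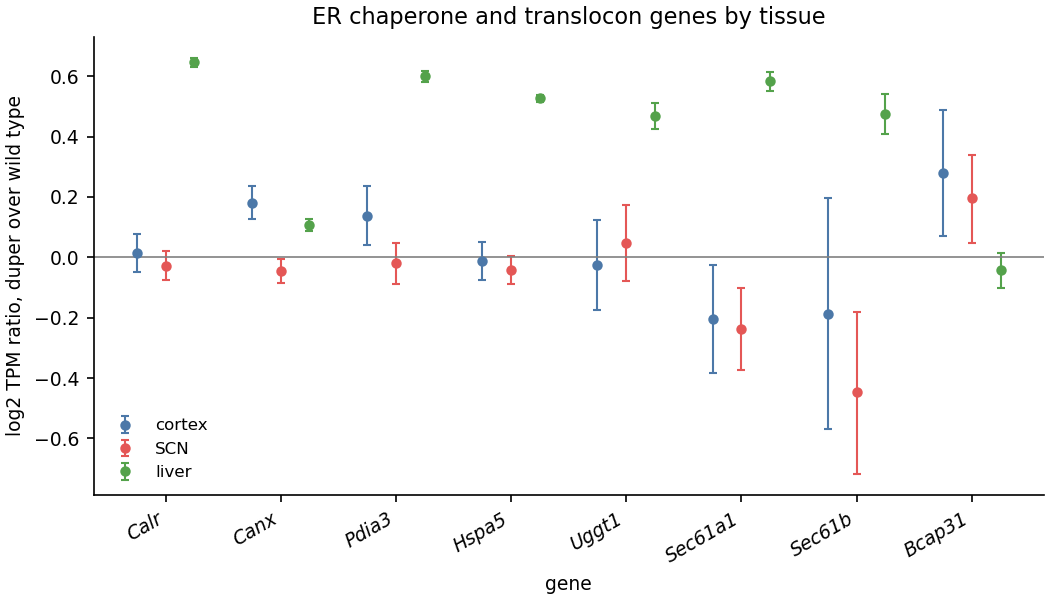
Log2 ratio of TPM, *duper* over wild type, for 8 chaperone and translocon genes of the endoplasmic reticulum, in cortex, SCN and liver, with 1 library per genotype and tissue and bars for the 95% interval from counting error only. The liver points of *Calr*, *Pdia3*, *Hspa5*, *Uggt1*, *Sec61a1* and *Sec61b* lie above the brain points, and those of *Canx* and *Bcap31* do not lie above both.

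Summed markers of other cells also differed between the genotypes. Macrophage and microglia markers (15 of 18 in the tables) summed to 353 TPM in wild-type and 405 in *duper* cortex, 420 against 529 in SCN, and 835 against 1316 in liver. All 13 that were tested had positive log2 fold changes, against 52.9% of all genes, with a median of 0.42 against 0.01. By edgeR's quasi-likelihood test 7 had an unadjusted p under 0.05, against 1.8% of all genes that were also higher in *duper*. The same test called 0 of the 13, against 0.00547% of all genes in either direction. T and NK cell markers (7 of 10 in the tables) were near the floor in the brain, with 3 at 0 in both cortex libraries, and summed to 1.90 against 2.28 TPM in cortex, 1.00 against 4.18 in SCN, and 13.5 against 19.3 in liver. B and plasma cell markers summed to 7.07 against 8.32 TPM in cortex, 5.84 against 14.3 in SCN, and 84.9 against 123 in liver, dendritic cell markers to 12.5 and 12.4, 12.9 and 16.1, and 9.17 and 7.04. Endothelial markers summed to 117 and 91.1 TPM, 104 and 105, and 75.4 and 71.8, and erythroid markers to 9.18 and 3.52, 20.5 and 7.59, and 16.9 and 8.02. The part of these cells in the class I differences was not tested.

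The annotation gives *B2m*, *Tapbpl*, *Psmb8* and *Psmb10* 1 transcript each. *Nlrc5* has 3 of nearly equal length, and in liver the longest (7684 bases) held 87.4% of its TPM in wild type and 62.9% in *duper*, the second (7601 bases) 10.0% and 31.4%. In the brain, at 12 to 127 counts per library, the longest held 100% in both *duper* libraries and next to none in both wild-type libraries, where the second held 93.1% in cortex and the third (7618 bases) 100% in SCN. The share assigned to the longest transcript was thus higher in *duper* in the brain and lower in *duper* in liver, with no replicate within a tissue. The first *Psmb9* transcript likewise held 100% in wild-type and 0.251% in *duper* cortex, on 7 and 11 counts. It held at least 90.4% in the remaining libraries. Whether such brain shares reflect the transcripts present or the assignment of few reads was not tested. The longer *Tap1* transcript held 82.9% to 100% of its TPM, the longer *Tap2* transcript at least 99.7%, and the second of 4 *Erap1* transcripts 72.7% to 87.4%. *Psmb9*, *Tap1*, *Psmb8* and *Tap2* are neighbors in the annotation, where *Psmb9* and *Tap1* overlap, and each has a fractional estimated count in 2 libraries.

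The genes most like *Nlrc5* in their 3 log2 ratios of TPM + 1 were *Tlr7*, a sensor of single-stranded RNA, *LOC101829732*, *Rnls*, which encodes renalase, *LOC101841093* and *LOC121141221*, at Euclidean distances of 0.112 to 0.165 among 12180 genes. Those were the tested genes averaging at least 1 TPM in every tissue, which *Nlrc5* itself did not in cortex (0.530 and 1.11 TPM). Its cortex ratio rests on 12 and 40 counts, so the order of the nearest genes is uncertain. *Tlr7* had ratios of 0.46 in cortex, 0.48 in SCN and 0.52 in liver, beside 0.47, 0.58 and 0.56 for *Nlrc5*. The other class I genes ranked from 302 (*Erap1*) to 10196 (*Psmb9*).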

How the data were processed

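The authors prepared stranded mRNA libraries, quantified the reads with kallisto (version not given in the sources used here) against a Syrian hamster reference and summed transcripts per gene with tximport. The deposited values are raw estimated counts and TPM for each gene, and, for each library, a table of counts, TPM and lengths of 67818 transcripts, all of which matched the annotation of BCM_Maur_2.0 by accession. That build's name differs from the one the study gives, so the annotation served only for names and neighbors.

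Rounded counts went into edgeR 4.0.16 (R 4.3.3, TMM, filterByExpr by genotype, quasi-likelihood F test, tissue and genotype as terms, 2 residual degrees of freedom). The SE is the absolute log2 fold change over the square root of F. DESeq2 1.42.0, limma 3.58.1 on log2(TPM + 1) and log2(TPM + 0.1), edgeR's likelihood ratio test, other scalings and filters, and leaving out libraries or tissues were alternatives. Within a tissue the log2 ratio of TPM was given with a 95% Clopper-Pearson interval from the 2 counts (scipy 1.17.1), and subunit ratios with an interval from the Poisson error of the 4 counts. Steps were tested on simulated data, in which the edgeR test of genotype made false calls at a share above the nominal level, so calls close to the threshold are the less certain.

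The genes named are the 10 symbols, *Cry1*, the heavy chains, the standard subunits, listed genes that were called or else the ends of their list, and the 5 genes nearest to *Nlrc5*. *Hspa5*, *Uggt1*, *Canx* and *Bcap31*, plotted with their list, were named after their values were seen. Members and lists were chosen with earlier results of these data known. Heavy chains were to be found by their description, which the annotation table used here lacks, so the 3 the study names were used, and class II was reduced to 2 symbols. Promoter motifs were not analysed here.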

Additional observations from a re-analysis of the deposited data

Results flagged for a closer look

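For 5 genes of the wider class I pathway the difference between *duper* and wild type was larger in liver than in brain by edgeR's quasi-likelihood test of a genotype-by-liver term with Benjamini-Hochberg adjustment over 18275 genes. The value of that term, on the log2 scale, was 1.01 for *Sec61a1* (SE 0.17, adjusted p of 0.00467), 1.00 for *Sec61b* (SE 0.22, adjusted p of 0.0274), 0.92 for *Thop1* (SE 0.22, adjusted p of 0.0454), 0.86 for *Calr* (SE 0.20, adjusted p of 0.0356) and 0.75 for *Pdia3* (SE 0.18, adjusted p of 0.0456). *Sec61a1*, the core of the channel into the endoplasmic reticulum, had 47.7 TPM in wild-type and 41.4 in *duper* cortex, 55.8 against 47.3 in SCN, and 102 against 153 in liver. *Sec61b*, a small subunit of the same channel, had 81.1 against 71.1 TPM in cortex, 125 against 91.9 in SCN, and 169 against 235 in liver. *Thop1* had 40.0 against 34.8 TPM in cortex, 32.6 against 31.1 in SCN, and 10.5 against 15.7 in liver. These 3 genes were lower in *duper* in both brain tissues and higher in *duper* liver, while *Calr* and *Pdia3* differed little in the brain. The brain differences of *Thop1* did not exceed counting error (intervals -0.43 to 0.03 in cortex and -0.26 to 0.13 in SCN). Nor did that of *Sec61b* in cortex (-0.57 to 0.20). *Hspa5* (0.76, SE 0.22, adjusted p of 0.0816 by edgeR) and *Uggt1* (0.67, SE 0.17, adjusted p of 0.0552 by edgeR) of the same list had values of similar size and were not called. Over 5 alternatives the adjusted p ranged from 8.85e-07 to 0.0510 for *Sec61a1*, 1.21e-05 to 0.101 for *Calr*, 0.000338 to 0.218 for *Pdia3*, 0.00218 to 0.515 for *Sec61b* and 0.00623 to 0.731 for *Thop1*, with the same sign throughout. Each liver value is 1 set of merged libraries per genotype. Macrophage markers summed to 835 TPM in wild-type and 1316 in *duper* liver, and their part in these values was not tested.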

How the results depend on the processing

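Across tissues, 0 class I genes were called in *duper* against wild type under every alternative except the likelihood ratio test, which called 2. The log2 fold change of *Psmb9* (0.05) was -0.0357 with DESeq2, -0.0811 with library size, -0.0108 with the likelihood ratio test, -0.13 and -0.15 with limma on log2(TPM + 1) and log2(TPM + 0.1), -0.0078 without the cortex libraries and -0.52 without the liver libraries, and ranged from -0.61 to 0.40 with 1 library left out. The other 8 genes kept a positive sign. Over all genes, 1 was called, 41 with DESeq2, 91 with the likelihood ratio test, 48 with no filter, 2 with limma on log2(TPM + 1), 22 without liver, 4 without SCN, 0 without cortex or with no tissue term, and 0 to 22 with 1 library left out.

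In SCN against cortex, 2 class I genes were called, 4 with DESeq2, 5 with library size, 5 with the likelihood ratio test, and 0 to 5 with 1 library left out. Of the other pathway genes 3 were called, 6 with library size and 0 to 3 with 1 library left out. In the test of liver minus brain, 5 other pathway genes were called, 0 with DESeq2, 1 with library size and 8 with the likelihood ratio test, and *Psmb10* turned from 0.13 to -0.0329 with library size. Over all genes that test called 593, 193 with DESeq2, 350 with library size and 1358 with the likelihood ratio test. In liver against brain, *Tapbpl* alone lost its call, at 0.58 with library size and 0.21 with both limma fits.

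Class I genes past 0.58 within a tissue numbered 2 in cortex with a pseudocount of 0.1 (from 1), 1 in SCN with TPM rescaled by TMM (from 2), and in liver 1 with a pseudocount of 0.1 and 2 with CPM or rescaled TPM (from 0). The causes of these shifts were not tested. The tissue term sets *duper* against wild type within each tissue, and with no tissue term 0 class I genes were called as well. Few counts limit the brain values of *Nlrc5*, *Psmb8* and *Psmb9*.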
